A study of Mus musculus with 4 samples.

Results

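Mature oligodendrocyte nuclei, from the cells that wrap axons in myelin, were followed through an ischemic stroke of the mouse forebrain by droplet-based single-nucleus RNA sequencing. A barcode was taken as such a nucleus where it held more than 1000 unique molecular identifiers (UMIs, 1 per captured RNA molecule) and where St18, Prr5l, Mog, Aspa, Ugt8a and Plekhh1 together held at least 6 UMIs and at least 0.3% of them. Barcodes with 2 or more UMIs of the precursor genes Pdgfra, Cspg4 and Neu4 were left out. In all, 1170 of 8909 barcodes with more than 1000 UMIs met this rule. The 4 libraries came from male C57Black/6 mice of 3 months and carried the labels sham control, day 1, day 3 or day 7 after middle cerebral artery occlusion (MCAO), a permanent model in which the vessel was coagulated and transected under isoflurane. Each library was made from 3 pooled forebrain hemispheres, so each group held 1 library, no difference has a replicate check, no p-value was computed, and the 3 post-injury libraries were all set against the same sham library.

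What the control tissue was is given in 2 ways, since the surgical protocol names intact cortex and the series design names forebrain hemispheres. The library title says sham, whereas the study describes its control as uninjured and places its comparison of naive and sham-operated mice in earlier work. Whether the mice of the sham control library had surgery is thus not settled by these sources. In the study's own account of nuclei by time point, the last pair of time points comes in the reverse order of size to the deposited libraries. The deposited labels were kept, and day 3 and day 7 mean the libraries labelled so.

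Oligodendrocytes arise from precursor cells that pass through a newly formed, premyelinating stage before they express the full set of myelin genes. Mature cells make compact myelin from proteins such as Mbp and from cholesterol and galactolipids, and supply axons with metabolites. White matter and its oligodendrocytes are damaged by ischemia, and surviving cells of this lineage take on reactive states in many models of injury. They also carry glucocorticoid receptors, through which the hormones released in stress and after surgery act on transcription.

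The members numbered 324 in sham control, 159 on day 1, 431 on day 3 and 256 on day 7. They made up 14.6% (exact Clopper-Pearson 95% interval 13.1 to 16.1) of the barcodes with more than 1000 UMIs in sham control, 13.2% (11.4 to 15.3) on day 1, 11.5% (10.5 to 12.6) on day 3 and 14.7% (13.0 to 16.4) on day 7. On day 3 the upper limit fell short of the lower limit in sham control. Of the barcodes that met the rule for a glial or endothelial class, mature oligodendrocytes were 43.5% (39.9 to 47.1) in sham control, 44.0% (38.9 to 49.3) on day 1, 33.6% (31.1 to 36.3) on day 3 and 43.3% (39.3 to 47.4) on day 7. Shares depend on how many other nuclei were captured, and a share here cannot tell fewer oligodendrocytes from more nuclei of other kinds. Under a minimum of 2000 UMIs for every barcode the shares were 9.47% in sham control, 6.98% on day 3 and 11.4% on day 7. The day 1 share then stayed within its interval of 11.4 to 15.3, above sham control. The order of sham control, day 1 and day 7 thus depended on the minimum.

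The label was checked with 16 oligodendrocyte genes that the rule did not use, among them Mbp, Mag, Sox10 and Opalin. All 16 were detected in the members of every library. Together they held 1.58% of the members' UMIs in sham control, 1.28% on day 1, 1.48% on day 3 and 1.48% on day 7, against 0.0324%, 0.0299%, 0.0359% and 0.0297% in barcodes that met a rule for neurons. Barcodes that were not members were put in a comparison class where a marker list held at least 6 UMIs and at least 0.3% of UMIs (2% for neurons). This gave 508 precursor-rule, 778 astrocyte-rule, 377 microglia-rule and 3458 neuron-rule barcodes, and the median depth of the last ran from 8341 to 16878 UMIs per library. The members were chosen by the UMIs of the 6 genes of the rule, so the values of these genes are a description with no test: the median member held 19 UMIs of them in sham control, 23 on day 1, 16 on day 3 and 19 on day 7. Just inside the limits lay 4 members in sham control, 0 on day 1, 12 on day 3 and 2 on day 7, and just outside lay 6, 0, 9 and 3 barcodes. The independent genes held 1.54% of UMIs just inside and 1.50% just outside in sham control, 1.48% and 1.36% on day 3, and 1.47% and 1.57% on day 7. The precursor limit removed 4, 1, 6 and 7 barcodes from the 4 libraries in the order above.

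Library totals ran from 23285489 to 42963698 UMIs. The median depth of members was 2061 UMIs in sham control and 3235, 1933 and 2404 UMIs on days 1, 3 and 7, so that day 1 members were sampled most deeply. No barcode was shared between members of different libraries, and barcodes with more than 1000 UMIs shared 0 to 3 sequences per pair of libraries. Free RNA, which reaches every droplet from broken cells, was estimated from the profile of barcodes with 10 to 500 UMIs and scaled by 16 neuronal genes. It came to 24.9% of the members' UMIs in sham control, 14.7% on day 1, 27.6% on day 3 and 15.5% on day 7, or to 12.4% to 17.8% when scaled by ependymal and choroid plexus genes. Depth and free RNA thus differed between the groups in the same libraries that are compared, and their part in a given difference was not tested unless a value is given beside it. The plot of members by library shows their shares, depths and marker levels.

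**Figure D1:**
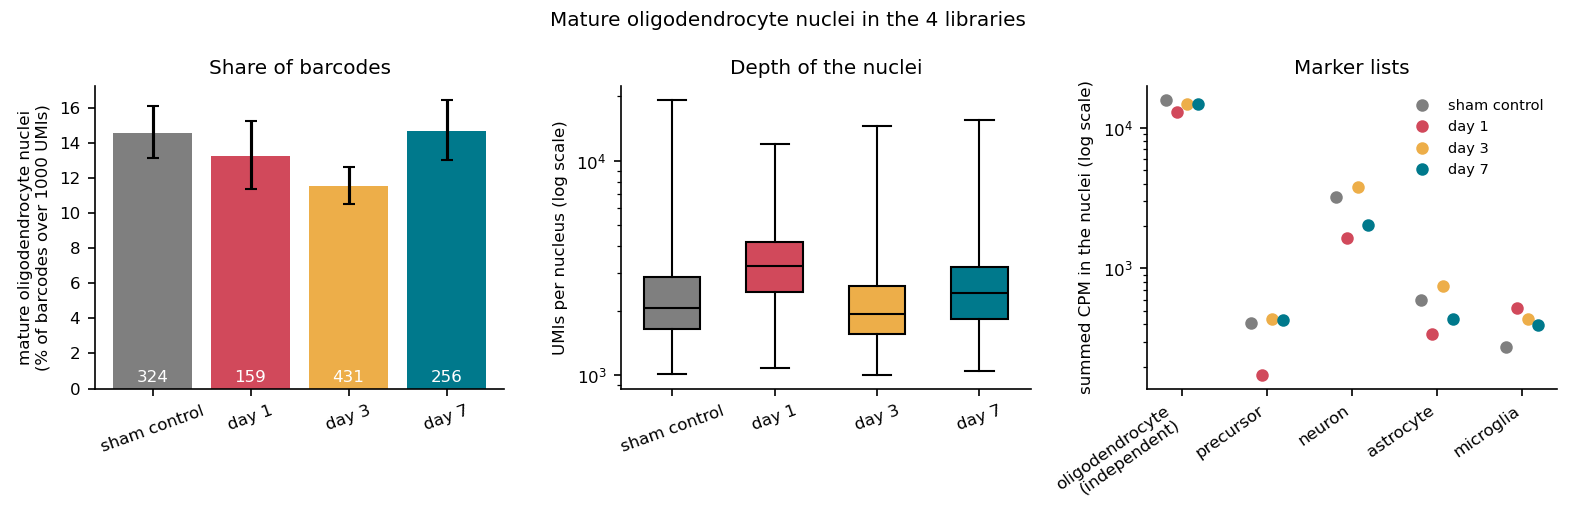
Mature oligodendrocyte nuclei in the 4 libraries. The panels give the share of barcodes with more than 1000 UMIs that met the rule, with exact 95% intervals, the UMIs per member, and the summed CPM of 5 marker lists in the members. Numbers in the bars are members, boxes give the median and quartiles and whiskers the lowest and highest value, and both level axes are logarithmic. Independent oligodendrocyte genes lie above every other list in each library, day 1 members have the highest median depth, 3235 UMIs, and neuron genes go from 3188 CPM in sham control to 1631 CPM on day 1.

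UMIs of all members of a library were summed per gene and given as CPM (UMIs of a gene per 1000000 UMIs of the members) with an exact 95% Poisson interval, and each post-injury library was compared with sham control by the ratio of CPM with an exact conditional binomial 95% interval, given in parentheses. All intervals cover counting error only. Of 46983 genes, 7392 held at least 60 UMIs over the members of the 4 libraries and were compared. A gene is said to have risen or fallen where its ratio was at least 2 or at most 0.5. Of the 7392 genes, 2.46% rose and 5.22% fell on day 1, 1.75% rose and 0.947% fell on day 3, and 1.42% rose and 4.06% fell on day 7. The median log2 ratio over all genes was -0.04 on day 1, -0.02 on day 3 and -0.08 on day 7.

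Several genes known to respond to glucocorticoids rose on day 1, led by Fkbp5 at 5.18-fold. Of 26 genes on a list of such targets and their receptor Nr3c1, 22 were compared. On day 1, 7 of them rose and 0 fell, against 2.46% and 5.22% of all genes, and 19 of 22 were above sham control. The 7 were Fkbp5, Zbtb16, Plin4, Hif3a, Pdk4, Ddit4 and Cdkn1a. The list was written with earlier results of these data known, so these counts describe it and are not independent evidence. The median log2 ratio over the 22 genes was 0.47 on day 1, 0.02 on day 3 and -0.12 on day 7. On day 3, Fkbp5, Zbtb16 and Mt2 rose and 0 fell, against 1.75% and 0.947% of all genes. On day 7, Zbtb16 and Plin4 rose and Sgk1, Pdk4 and Fam107a fell, against 1.42% and 4.06% of all genes. Glucocorticoids bind the receptor Nr3c1, which enters the nucleus and acts on DNA through palindromic sites with the consensus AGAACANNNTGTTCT. The promoter windows printed are those of Sgk1, Fam107a and Mt1, chosen because they hold a match to such a site, and that of Fkbp5, chosen because it had the highest ratio of the list on day 1. Of these 4 genes only Fkbp5 rose on day 1. The windows run from 250 bases before to 50 bases after an annotated start (RefSeq, GRCm38.p6), 5′ to 3′ on the strand of the gene, with any match to the looser palindrome GNACANNNTGTNC in capitals.
Sgk1, chr10:21993640-21993939, plus strand: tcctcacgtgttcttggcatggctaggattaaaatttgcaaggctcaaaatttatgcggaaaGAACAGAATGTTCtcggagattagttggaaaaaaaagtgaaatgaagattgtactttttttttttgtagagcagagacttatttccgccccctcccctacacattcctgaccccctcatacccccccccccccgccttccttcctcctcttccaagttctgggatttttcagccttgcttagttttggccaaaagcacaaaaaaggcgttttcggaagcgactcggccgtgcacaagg
Fam107a, chr14:8309730-8310029, minus strand: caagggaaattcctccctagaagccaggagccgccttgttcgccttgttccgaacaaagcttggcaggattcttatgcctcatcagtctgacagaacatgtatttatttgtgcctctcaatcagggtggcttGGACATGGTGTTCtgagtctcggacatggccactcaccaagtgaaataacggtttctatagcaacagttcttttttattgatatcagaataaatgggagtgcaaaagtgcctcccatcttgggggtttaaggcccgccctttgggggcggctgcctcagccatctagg
Mt1, chr8:94178839-94179138, plus strand: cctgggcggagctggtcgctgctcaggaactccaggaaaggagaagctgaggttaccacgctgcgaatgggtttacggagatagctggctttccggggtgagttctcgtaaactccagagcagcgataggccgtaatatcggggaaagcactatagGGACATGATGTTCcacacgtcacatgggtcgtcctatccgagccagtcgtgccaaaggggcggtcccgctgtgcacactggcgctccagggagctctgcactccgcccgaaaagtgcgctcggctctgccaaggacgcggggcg
Fkbp5, chr17:28486100-28486399, minus strand: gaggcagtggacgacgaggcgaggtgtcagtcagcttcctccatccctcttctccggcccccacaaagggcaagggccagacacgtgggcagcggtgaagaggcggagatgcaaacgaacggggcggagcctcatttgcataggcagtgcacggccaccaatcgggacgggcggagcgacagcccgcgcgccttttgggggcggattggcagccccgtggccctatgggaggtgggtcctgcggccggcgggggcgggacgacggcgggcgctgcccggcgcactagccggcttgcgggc
Of the 22 genes compared, 20 had windows, 36 in all. The looser palindrome, searched on both strands, was found in 4 of these 36 windows, and in 0.475% of all 32851 windows of the annotation. Since 2 windows of Fam107a overlap and hold the same match, these are 3 sites in 3 genes, Sgk1, Fam107a and Mt1, of the 20, against 0.537% of all genes with windows. The full consensus, every match of which is also a match of the looser one, was found in 1 of the 36, that of Sgk1, and in 3 of all windows. No window was searched for Zbtb16 and Nr3c1. The windows of the other 6 genes that rose on day 1, Fkbp5, Plin4, Hif3a, Pdk4, Ddit4 and Cdkn1a, held no match, which says only that these letters are absent from 300 bases around the start.

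Fkbp5 (chr17:28399094-28517527, minus strand), a co-chaperone of Hsp90 that restrains the glucocorticoid receptor, stood at 89.5 CPM in sham control, 464 on day 1, 230.0 on day 3 and 128 on day 7. These values rest on 75 UMIs in sham control, 267 on day 1, 244 on day 3 and 92 on day 7. The day 1 and day 3 levels were above sham control, by 5.18-fold (4.00 to 6.79) and 2.57-fold (1.98 to 3.38), and the day 7 ratio was 1.43. After every member was thinned to 1000 UMIs, 9.26% (6.33 to 13.0) of members held an Fkbp5 UMI in sham control, 26.4% (19.7 to 34.0) on day 1, 22.5% (18.6 to 26.7) on day 3 and 11.7% (8.05 to 16.3) on day 7. Neuron-rule barcodes thinned likewise gave 5.53%, 8.79%, 6.98% and 3.81%, and the unthinned shares of members were 19.1%, 57.2%, 37.1% and 24.6%. Free RNA was estimated to supply 2.15% of the day 1 level, and over the 10 alternatives the day 1 ratio ran from 3.72 to 5.80.

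Zbtb16 (chr9:48654297-48836222), which encodes a zinc-finger repressor of transcription, stood at 206 CPM in sham control, 497 on day 1, 538 on day 3 and 424 on day 7. All 3 post-injury libraries were above sham control, by 2.41-fold (1.99 to 2.92), 2.61-fold (2.20 to 3.11) and 2.05-fold (1.70 to 2.49). The day 1 ratio was 1.98 after thinning and the day 7 ratio 1.88 after free RNA was subtracted, so that these 2 lay at the limit of the call, whereas the day 3 ratio kept above it in all 10 alternatives. Hif3a, a hypoxia-inducible factor subunit and a known glucocorticoid target, held 48.9 CPM in sham control, 137 on day 1, 88.6 on day 3 and 37.7 on day 7. It rose 2.80-fold (1.90 to 4.20) on day 1 and stood at 0.770-fold on day 7. Plin4, a coat protein of lipid droplets, rose 2.06-fold (1.42 to 3.00) on day 1 and 2.04-fold (1.43 to 2.94) on day 7, and stood at 1.08-fold on day 3, with 1.78 and 1.85 on day 1 and day 7 under a stricter member rule, with higher limits on the marker genes. Ddit4, an inhibitor of mTORC1 signalling, rose 2.05-fold (1.34 to 3.18) and Pdk4, a kinase that shuts off pyruvate dehydrogenase, rose 2.07-fold (1.11 to 3.94) on day 1. Under the same rule these last 2 were at 1.19 and 0.874. Cdkn1a, also on the list, is described with the injury-linked genes.

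Other targets on the list did not pass the limit on day 1. Slc38a2, an amino acid transporter, went from 466 to 901 CPM on day 1, 1.93-fold (1.69 to 2.21). Errfi1 stood at 1.49-fold on day 1, Per1 at 1.14 and Tsc22d3, a classical target also called GILZ, at 0.996. The receptor Nr3c1 was at 0.820-fold (0.625 to 1.07). Nr3c2, the mineralocorticoid receptor, which is not on the list, was at 0.753-fold (0.542 to 1.04), and both intervals held 1. The list's summed level was 3493 CPM in sham control, 5255 on day 1, 3891 on day 3 and 3415 on day 7 in the members, and in the free-RNA profile it was 2313 CPM in sham control and 3397 on day 1. The list also had positive day 1 medians in the other classes of barcode. Its median log2 ratio was 0.19 over 14 genes in precursor-rule barcodes, 0.29 over 19 genes in astrocyte-rule, 0.14 over 7 genes in microglia-rule and 0.24 over 21 genes in neuron-rule barcodes. Fkbp5 itself stood at 2.62-fold in precursor-rule, 4.37 in astrocyte-rule, 2.88 in microglia-rule and 1.78 in neuron-rule barcodes.

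**Figure D2:**
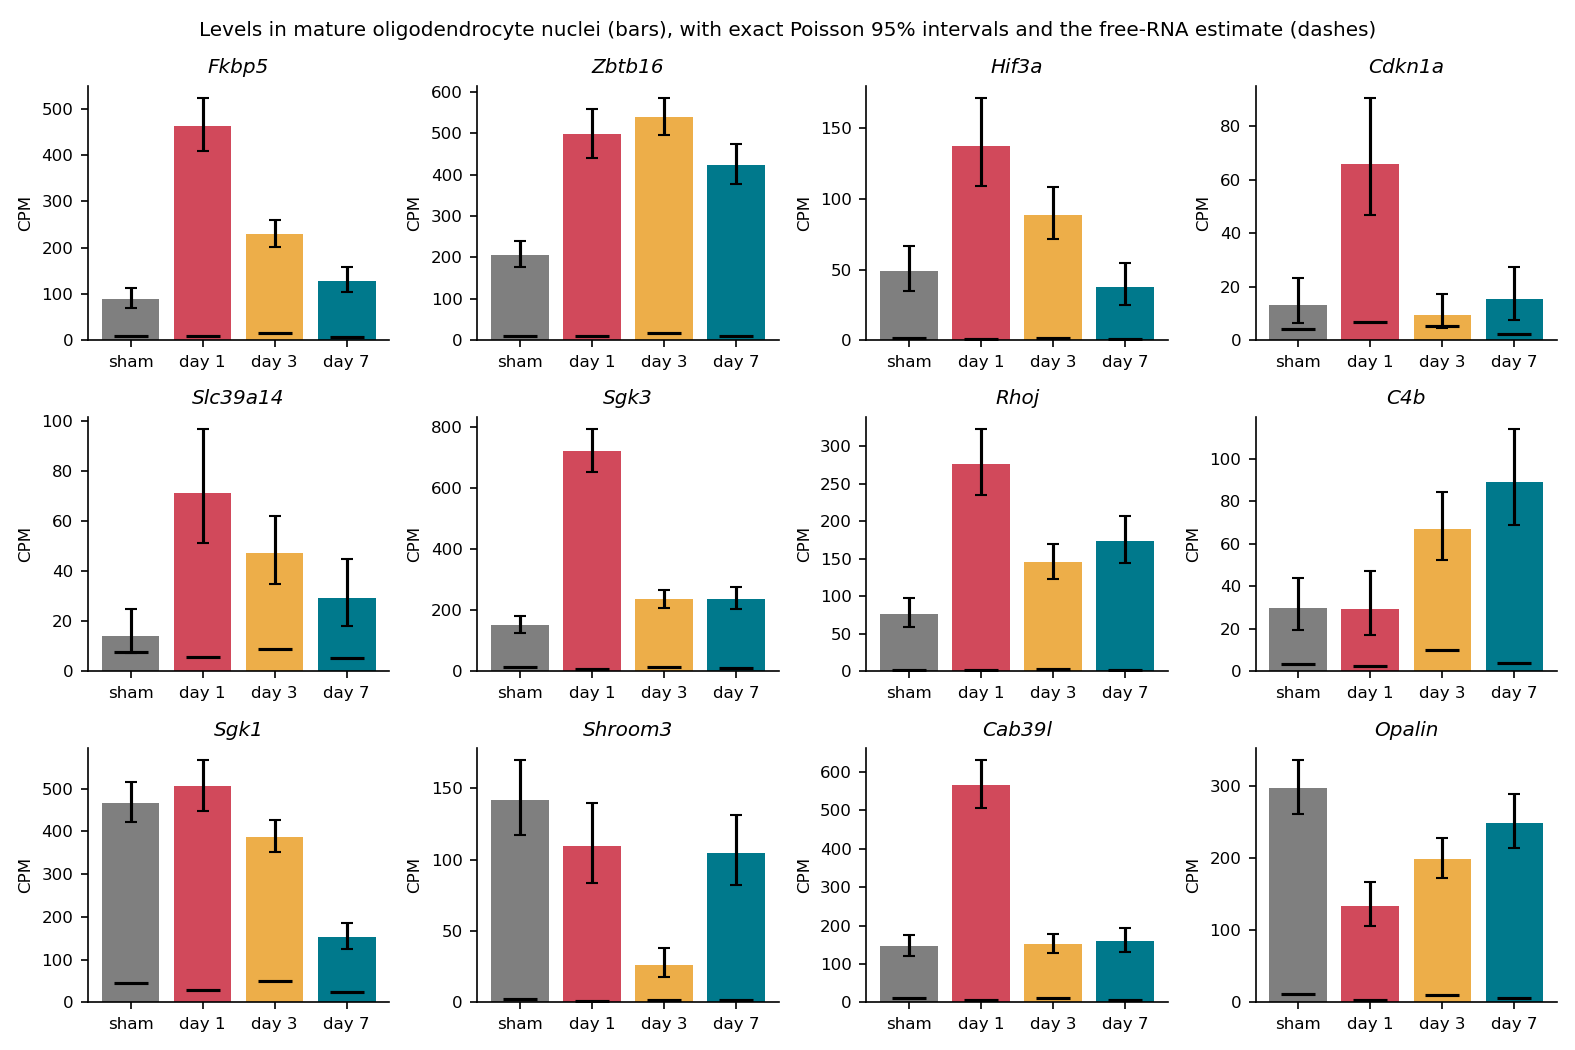
Levels of 12 genes in mature oligodendrocyte nuclei of the 4 libraries. Bars give CPM of the summed UMIs with exact 95% Poisson intervals, and dashes mark the free-RNA estimate. Fkbp5 stood at 89.5 CPM in sham control and 464 on day 1, Sgk1 at 466 and 153 on day 7, and Shroom3 at 142 and 26.4 on day 3.

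Outside this list, Sgk3, Cab39l and Slc25a13 were among the genes that rose in day 1 members. Sgk3 (chr1:9798107-9900845), a kinase of the Sgk1 family that acts downstream of phosphoinositide 3-kinase, stood at 152 CPM in sham control, 721 on day 1, 236 on day 3 and 239 on day 7. Only the day 1 library was past the 2-fold limit, at 4.76-fold (3.89 to 5.85), and the ratio was 3.12 under the stricter member rule. The share of members with an Sgk3 UMI after thinning was 11.1% (7.90 to 15.0) in sham control and 34.6% (27.2 to 42.5) on day 1, against 8.03% and 6.59% in neuron-rule barcodes, and the unthinned shares of members were 24.7% and 56.6%. In the other classes the Sgk3 ratio on day 1 was 1.50-fold (1.03 to 2.18) in precursor-rule, 0.806-fold (0.502 to 1.27) in astrocyte-rule, 1.11-fold (0.644 to 1.94) in microglia-rule and 0.878-fold (0.793 to 0.972) in neuron-rule barcodes. Each of these intervals lay below that of the members, which covers counting error only.

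Cab39l (chr14:59440972-59585764), a scaffold of the LKB1 kinase complex, stood at 147 CPM in sham control, 566 on day 1, 152 on day 3 and 160.4 on day 7. It was past the limit on day 1, at 3.86-fold (3.13 to 4.79), and within 10% of sham control afterwards. Slc25a13 (chr6:6041218-6217173), the mitochondrial aspartate-glutamate carrier citrin, stood at 228 CPM in sham control, 712 on day 1, 271 on day 3 and 410.1 on day 7, 3.12-fold (2.63 to 3.73) on day 1 and 1.80-fold (1.50 to 2.17) on day 7. The thinned share of members with a UMI went from 13.9% to 32.1% for Cab39l and from 21.9% to 44.7% for Slc25a13 between sham control and day 1, against 4.45% to 4.12% and 0.976% to 1.10% in neuron-rule barcodes. Unthinned, these shares went from 26.2% to 56.6% and from 40.1% to 79.9%. In neuron-rule barcodes the day 1 ratio was 0.952 for Cab39l and 1.03 for Slc25a13. Cab39l overlaps Cdadc1 on the other strand, and since the strand used in counting is not given in the sources used here, overlapping genes cannot be told apart. The same limit holds for Fkbp5, Hif3a, Plin4, Cdkn1a, Sgk3, Ddc, Garnl3, Shroom3, Piezo2, Gfra1, Fam13c, Snx32, Utrn, Fbn2, Aim2 and Neat1, each of which overlaps at least 1 other annotated gene, and not for Zbtb16, Slc25a13, Zfand4, Rhoj, C4b, Klk6, Slc39a14, Opalin, Il33 or Sgk1.

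Ddc, the decarboxylase that makes dopamine and serotonin from their precursors, held 35.8 CPM in sham control, 162 on day 1, 77.3 on day 3 and 75.3 on day 7. It rose 4.51-fold (2.96 to 7.06) on day 1, a ratio that was 2.05 among members of 1500 to 4000 UMIs, and stood at 2.16 and 2.10-fold on day 3 and day 7, or 1.92 and 1.60 under the stricter rule. Zfand4 held 22.7 CPM in sham control, 108 on day 1, 76.3 on day 3 and 46.0 on day 7, and rose 4.75-fold (2.80 to 8.41), 3.37-fold (2.02 to 5.88) and 2.03-fold (1.12 to 3.78). Garnl3 stood at 77.5 CPM in sham control, 261 on day 1, 144 on day 3 and 194 on day 7, which was 3.36-fold (2.49 to 4.57) on day 1 and 2.50-fold (1.85 to 3.41) on day 7, or 2.17 and 1.76 among members of 1500 to 4000 UMIs. The remaining 2 genes that the naming rule gave on day 1 and that are on no list, the pseudogene Gm7135 and the gene Gm17359, rose 4.58-fold and 6.35-fold, and both overlap another gene, Gm37171 and Fnip2. Over all barcodes with more than 1000 UMIs, Gm7135 went from 22.0 CPM in sham control to 40.7 on day 1 and Gm17359 from 6.27 to 18.7. Ptgds, the prostaglandin D2 synthase, went from 2102 to 4059 CPM, 1.93-fold (1.81 to 2.06), just short of the limit, and was at 0.844 and 1.03-fold later.

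**Figure D3:**
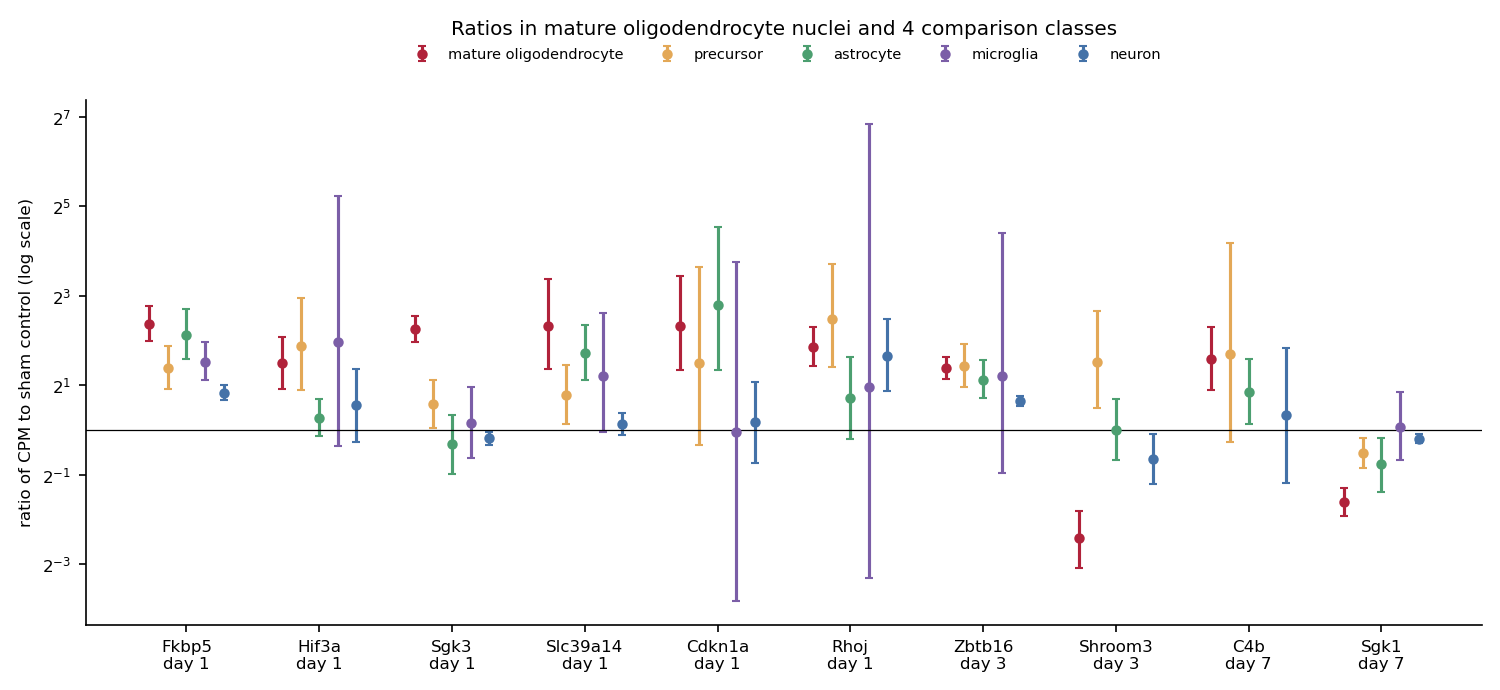
Ratios of CPM to sham control for 10 genes, each for the day named under it, in mature oligodendrocyte nuclei and in precursor-, astrocyte-, microglia- and neuron-rule barcodes, on a logarithmic axis with exact 95% intervals. A class with no UMI in a library has no point. Sgk3 on day 1 was 4.76-fold in members and 0.878-fold in neuron-rule barcodes, whereas Rhoj was 3.62-fold in members and 3.13-fold in neuron-rule barcodes.

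Some genes linked to injured oligodendrocytes rose, among them Rhoj on day 1 and day 7 and C4b and Klk6 on day 3 and day 7. The study picked a set of reactive oligodendrocyte genes partly on these libraries, so their direction is not independent evidence. Of 24 such genes, 18 were compared, of which 3 rose on day 1, 4 on day 3 and 3 on day 7, and 0 fell. Of all genes compared, 2.46%, 1.75% and 1.42% rose and 5.22%, 0.947% and 4.06% fell on these days. Their median log2 ratio was 0.33 on day 1, 0.32 on day 3 and 0.43 on day 7, with 11, 15 and 16 of 18 above sham control, but the day 1 median was 0.06 when each nucleus was given equal weight. Rhoj, a small GTPase, stood at 76.4 CPM in sham control, 276 on day 1, 145 on day 3 and 173 on day 7 and rose 3.62-fold (2.69 to 4.91) on day 1 and 2.27-fold (1.66 to 3.11) on day 7, with 1.90-fold (1.41 to 2.59) on day 3. Rhoj was also higher on day 1 in neuron-rule barcodes, at 3.13-fold (1.83 to 5.54), and in precursor-rule barcodes, at 5.56-fold (2.66 to 13.0). C4b, the complement component, stood at 29.8 CPM in sham control, 29.5 on day 1, 66.9 on day 3 and 89.3 on day 7. It was level with sham control on day 1 and higher on day 3 and day 7, by 2.24-fold (1.40 to 3.69) and 2.99-fold (1.86 to 4.96), though after thinning these ratios were 1.40 and 1.45. Microglia genes were also higher in the members of these libraries, at 440 and 399 CPM in sum against 277 in sham control. They were higher still on day 1, at 519 CPM, when C4b was level with sham control. Microglia-rule barcodes held 0 C4b UMIs in sham control and 6 on day 7. The part of microglial RNA in the C4b difference was not tested.

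Klk6, a secreted serine protease, held 14.3 CPM in sham control, 17.4 on day 1, 36.8 on day 3 and 29.3 on day 7, 2.57-fold (1.32 to 5.39) on day 3 and 2.05-fold (0.962 to 4.56) on day 7. Among members of 1500 to 4000 UMIs these were 1.99 and 1.15, so neither rise held there. Serpina3n, an inhibitor of serine proteases, held only 1 UMI in sham control, 7 on day 1, 22 on day 3 and 16 on day 7 and missed the 60 UMI minimum. Its ratios were 10.2-fold (1.31 to 459), 17.4-fold (2.81 to 717) and 18.7-fold (2.91 to 785), so that these intervals are very wide, and free RNA was estimated at 49.1%, 52.2% and 16.9% of its post-injury levels. Il33, a nuclear alarmin of oligodendrocytes, did not pass the limit, at 348 CPM in sham control, 413 on day 1, 269.6 on day 3 and 396 on day 7, nor did Neat1, the scaffold RNA of paraspeckles, at 805 CPM in sham control, 1263 on day 1, 851 on day 3 and 1246 on day 7. Apod, a lipid carrier, rose 2.06-fold (1.87 to 2.27) on day 1 but stood at 1.52 among members of 1500 to 4000 UMIs, and Cdc14a rose 2.60-fold (1.44 to 4.83), or 1.22 after thinning. Ctsd and S100a6 rose 2.68 and 2.92-fold on day 3, where the free-RNA estimate was 115% and 117% of their level.

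Cdkn1a, which encodes the cell cycle inhibitor p21, stood at 13.1 CPM in sham control, 66.0 on day 1, 9.42 on day 3 and 15.3 on day 7. It rose on day 1 alone, 5.03-fold (2.52 to 10.9), or 2.55 after thinning, and in astrocyte-rule barcodes the day 1 ratio was 6.88. It is both a p53 target and on the glucocorticoid list. Of 26 p53 targets, 13 were compared, and Cdkn1a was the 1 gene of them that rose on day 1, while Ano3 fell on day 7, to 0.443, with free RNA at 99.3% of the sham level, or 0.629 among members of 1500 to 4000 UMIs. The p53 list had a median log2 ratio of 0.19 on day 1, -0.12 on day 3 and -0.18 on day 7, with 11 of 13 above sham control on day 1 and 2 of 13 on day 7. Slc39a14, a transporter of zinc, iron and manganese, stood at 14.3 CPM in sham control, 71.2 on day 1, 47.1 on day 3 and 29.3 on day 7, which was 4.97-fold (2.56 to 10.4), 3.29-fold (1.73 to 6.79) and 2.05-fold (0.962 to 4.56). The day 1 rise held in all 10 alternatives, but after thinning day 3 stood at 1.88 and day 7 at 1.05. Of 23 genes of metal handling and redox defence, 14 were compared, and 2 rose and 1 fell on day 1, 2 rose and 1 fell on day 3, and 1 rose and 3 fell on day 7, beside shares of all genes of 2.46% and 5.22%, 1.75% and 0.947%, and 1.42% and 4.06%. Beside Slc39a14, the metallothionein Mt2 rose on day 3, to 2.06-fold with free RNA at 86.8% of the level, and Cp, the copper protein ceruloplasmin, fell to 0.395-fold (0.173 to 0.850) on day 3 and 0.372-fold (0.134 to 0.902) on day 7. The other gene that rose on day 1 was Nfe2l2, the master regulator of antioxidant genes, at 2.25-fold (1.28 to 4.04) but 0.728 after thinning. Tfrc, the transferrin receptor, fell to 0.380-fold on day 1 and 0.458-fold on day 7, and Gpx4, which protects lipids from peroxidation, fell to 0.398-fold on day 7, with free RNA at 55.3% and 72.6% of the sham level. After thinning Cp was at 0.644 on day 3, among members of 1500 to 4000 UMIs Tfrc was at 0.579 on day 1, and with free RNA subtracted Gpx4 was at 0.649 on day 7.

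Most myelin sheath genes stood below sham control after injury, though on day 7 their median was close to that of all genes. Opalin on day 1 was the 1 of 18 that fell by 2-fold or more, a share near the 5.22% of all genes that fell that day. Of 18 genes of myelin sheath proteins, all compared, 16 were below sham control on day 1, 15 on day 3 and 12 on day 7, and the median log2 ratio was -0.25 on day 1, -0.13 on day 3 and -0.11 on day 7, against -0.04, -0.02 and -0.08 over all genes. Mog, 1 of the 18, was among the genes that chose the members, and of the other 17 there were 15, 14 and 11 below sham control, with medians of -0.23, -0.13 and -0.09. The summed level of the 18 was 16848 CPM in sham control, 13428 on day 1, 15803 on day 3 and 15499 on day 7. Opalin (chr19:41061710-41077113, minus strand), a membrane glycoprotein of myelin, stood at 297 CPM in sham control, 134 on day 1, 199 on day 3 and 249.7 on day 7. Sham control was the highest and day 1 the lowest, 0.450-fold (0.344 to 0.583), with a range of 0.326 to 0.454 over the 10 alternatives, and day 3 and day 7 lay between at 0.669-fold (0.555 to 0.807) and 0.841-fold (0.690 to 1.02). After thinning, 24.7% (20.1 to 29.8) of members held an Opalin UMI in sham control and 9.43% (5.38 to 15.1) on day 1, against 0.325% and 0.275% in neuron-rule barcodes, and the unthinned shares of members were 43.2% and 30.2%. Free RNA was estimated at 3.79% of the sham level of Opalin.

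Other sheath genes stood nearer to sham control on day 1. Mal, a proteolipid of myelin membranes, was at 0.632-fold, Cnp, an enzyme of noncompact myelin, at 0.701, Mbp at 0.863 and Mobp at 0.853, while Mag, the adhesion protein next to the axon, was at 0.956-fold (0.856 to 1.07). Mag was above sham control on day 7, at 1.23-fold (1.11 to 1.35). Of 14 genes compared on a list of lineage regulators, which are transcription factors beside the long noncoding RNA Sox2ot and Carns1, the enzyme that makes carnosine, 0 passed the limit on any day, and 8 were below sham control on day 1, with medians of -0.26 on day 1, -0.11 on day 3 and 0.00 on day 7. Myrf, which switches on myelin genes, was at 1.50-fold (1.17 to 1.92) on day 1 and Sox10 at 1.13-fold (0.920 to 1.39). Enzymes of myelin lipid synthesis had medians of -0.21 on day 1, -0.11 on day 3 and -0.19 on day 7 over 25 genes. Of these 25, 1 fell on day 7, a share near the 4.06% of all genes that fell that day. This was Fasn at 0.356-fold (0.129 to 0.857), or 0.529 among members of 1500 to 4000 UMIs. Of 12 cholesterol synthesis genes compared, 3 fell on day 1, when 5.22% of all genes fell, among them Nsdhl at 0.485-fold (0.114 to 1.60), an interval that held 1, where free RNA was 33.9% of the sham level. Under the stricter rule it was at 0.604. Nsdhl rose 2.17-fold (1.09 to 4.62) on day 3, or 1.40 after thinning, and 9 of 12 were below sham control on day 7. Axon-glia adhesion and gap junction genes had medians of -0.12 on day 1, -0.07 on day 3 and 0.00 on day 7 over 21 genes, with Kirrel3 at 0.498-fold (0.436 to 0.568) on day 1, a fall that did not pass the limit under the stricter rule.

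Genes of the newly formed stage stood mostly below sham control on day 1 and day 3 and above it on day 7, and in sham control and on day 7 a few nuclei held much of the level of some of them. Of 18 on the list, 11 were compared, and the median log2 ratio was -0.55 on day 1, -0.35 on day 3 and 0.44 on day 7, with 3, 1 and 10 of 11 above sham control. The day 1 median was -0.023 under the stricter member rule and -0.30 without the richest nucleus of each gene. Nckap5 fell on day 1, to 0.266-fold (0.192 to 0.360), and Itpr2 and Pik3r3 rose on day 7. Pik3r3, Itpr2, Tcf7l2 and, from the guidance list, Sema5a stood at 2.85, 2.13, 1.79 and 2.32-fold on day 7, but 1 nucleus held 32.5% of the Pik3r3, 36.3% of the Itpr2 and 33.5% of the Sema5a UMIs there. Among members of 1500 to 4000 UMIs the list median was -0.01, Pik3r3 was at 0.755 and Itpr2 at 0.911. Summed over 6 genes chosen after their values were seen, of which Itpr2, Nckap5, Tcf7l2, Pik3r3 and Tmem163 are on this list and Sema5a is on that of guidance receptors, the members held 825 UMIs in sham control, 282 on day 1, 685 on day 3 and 1265 on day 7. The 5 richest nuclei of each library held 48.2%, 33.3%, 19.0% and 69.4% of these. Members with at least 20 such UMIs numbered 5 in sham control, 1 on day 1, 5 on day 3 and 6 on day 7. The summed level of the 6 genes was 984, 490, 646 and 1765 CPM, and without those nuclei, left out because they hold these genes, it was 537, 406, 548 and 517 CPM.

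On day 3, 129 genes rose and 70 fell, and Shroom3 was among the genes that fell. Shroom3 (chr5:92683435-92965318), which binds actin and shapes cell edges, stood at 142 CPM in sham control, 109 on day 1, 26.4 on day 3 and 105 on day 7. The day 3 level lay far below the other 3, at 0.186-fold (0.119 to 0.282) of sham control, with a range of 0.140 to 0.226 over the alternatives. The thinned share of members with a UMI was 13.0% (9.50 to 17.1) in sham control and 2.78% (1.45 to 4.81) on day 3, against 0.217% and 0.0672% in neuron-rule barcodes, and the unthinned shares of members were 20.4% and 4.41%. On day 3 the Shroom3 ratio was 0.639-fold (0.434 to 0.938) in neuron-rule and 2.85-fold (1.41 to 6.36) in precursor-rule barcodes. Hdac11, a histone deacetylase, held 101 CPM in sham control, 64.3 on day 1, 40.5 on day 3 and 121 on day 7 and fell to 0.400-fold (0.270 to 0.583) on day 3, or 0.524 after thinning, where it no longer passed the limit. Trmt10a, a tRNA methyltransferase, fell to 0.361-fold (0.204 to 0.617) and the long noncoding RNA Gm816 to 0.389-fold (0.252 to 0.592). Magi1 and Sema6a, a junction scaffold and a guidance cue, stood below sham control without passing the limit, at 0.535-fold (0.467 to 0.613) and 0.568-fold (0.479 to 0.673). Rwdd1 fell to 0.287-fold (0.135 to 0.571), while 3110021N24Rik and Gm43296 stood at 0.519 and 0.509-fold.

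Among the genes higher on day 3, Fkbp5, Zbtb16, Zfand4 and Slc39a14 have been described. Man1a, a mannosidase of the Golgi, and Fam214a were near the limit at 1.96-fold (1.61 to 2.40) and 1.94-fold (1.64 to 2.32). Fam169a rose 5.79-fold (2.46 to 16.6). Slc6a11, a GABA transporter of astrocytes, rose 5.18-fold (2.55 to 11.9), or 1.57 among members of 1500 to 4000 UMIs. The mitochondrial ribosomal RNAs mt-Rnr1 and mt-Rnr2 stood at 1.80 and 1.78-fold, with free RNA at 34.0% and 28.1% of the level. Over all barcodes with more than 1000 UMIs, mt-Rnr1 went from 926 CPM in sham control to 2965 on day 3 and mt-Rnr2 from 2676 to 8217. Over the same barcodes, mt-Nd3 held 1890 UMIs in sham control, 743 on day 1, 1 on day 3 and 1188 on day 7, and the pseudogene Gm28438 held 1, 0, 2953 and 2. Their values in members, on day 3 above all, followed this split, and no direction is drawn from them.

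Sgk1 fell on day 7. This gene (chr10:21882184-21999903), a kinase that regulates ion transport and is a classical glucocorticoid and osmotic target, stood at 466 CPM in sham control, 505 on day 1, 387 on day 3 and 153 on day 7. The first 3 libraries were close and the day 7 level was 0.329-fold (0.264 to 0.407) of sham control, with a range of 0.273 to 0.359 over the 10 alternatives. In thinned members an Sgk1 UMI was found in 36.1% (30.9 to 41.6) in sham control, 40.3% (32.6 to 48.3) on day 1, 34.3% (29.9 to 39.0) on day 3 and 12.5% (8.71 to 17.2) on day 7, and in neuron-rule barcodes in 18.5%, 10.2%, 14.2% and 14.6%. Unthinned, the shares of members were 64.2%, 73.6%, 57.3% and 30.1%. On day 7 the Sgk1 ratio was 0.699-fold (0.553 to 0.880) in precursor-rule, 0.587-fold (0.384 to 0.881) in astrocyte-rule, 1.05-fold (0.624 to 1.79) in microglia-rule and 0.871-fold (0.812 to 0.935) in neuron-rule barcodes. Fkbp5 and Zbtb16 stood at 1.43 and 2.05-fold on day 7. Of the same list, Pdk4 fell to 0.431-fold (0.153 to 1.07) and Fam107a to 0.492-fold (0.186 to 1.18), or 0.987 under the stricter rule, and both intervals held 1.

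Piezo2, a mechanically gated channel, held 7.16 CPM in sham control, 10.4 on day 1, 40.5 on day 3 and 68.4 on day 7. It rose 5.66-fold (2.40 to 16.3) on day 3, where 1 nucleus held 27.9% of its UMIs, and 9.55-fold (4.09 to 27.3) on day 7, or 5.06 after thinning. Aldh1l2, a mitochondrial enzyme of folate metabolism, held 7.16 CPM in sham control, 24.3 on day 1, 26.4 on day 3 and 32.1 on day 7, 4.48-fold (1.77 to 13.5) on day 7. Fam13c went from 192 to 435 CPM, 2.27-fold (1.87 to 2.76), and stood at 1.91 among members of 1500 to 4000 UMIs, and Snx32, a sorting nexin, rose 2.34-fold (1.74 to 3.18). Gm13963 rose 3.76-fold (2.03 to 7.41) and overlaps Fmn1 on the other strand, and Gm20417 stood at 1.76-fold (1.67 to 1.86). Pros1, the anticoagulant protein S, rose 4.87-fold (1.95 to 14.5) on day 7, or 1.27 after thinning. The pseudogene Amd-ps3 rose 14.9-fold (5.48 to 56.8), but over all barcodes with more than 1000 UMIs it also held 283 UMIs on day 7 against 31 in sham control, 64 on day 1 and 68 on day 3.

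Among the falls on day 7, Gfra1 (chr19:58235604-58455909), the receptor for the growth factor GDNF, stood at 156 CPM in sham control, 76.4 on day 1, 82.9 on day 3 and 40.5 on day 7. Each post-injury library was below sham control, at 0.489-fold (0.339 to 0.693), 0.531-fold (0.400 to 0.701) and 0.259-fold (0.167 to 0.389), and day 7 was the lowest. Fbn2, the matrix protein fibrillin-2, fell to 0.187-fold (0.0766 to 0.398) and Utrn, which links actin to the matrix, fell to 0.234-fold (0.101 to 0.484), or 0.592 under the stricter rule. Cggbp1 fell to 0.189-fold (0.0573 to 0.489), and Gm20696, which lies within Foxp1, to 0.180-fold (0.0456 to 0.519). Gm26691, Gm3764, Rmst and Mapk4 fell to 0.200, 0.316, 0.146 and 0.253, with free RNA at 44.9%, 25.6%, 41.4% and 47.8% of the sham level, and under the stricter rule Gm3764 was at 0.666 and Mapk4 at 0.694. The pseudogene Gm7180, which lies within Pde8a, fell on day 3 and day 7, to 0.333-fold (0.197 to 0.545) and 0.287-fold (0.148 to 0.522).

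Lists of stress and signalling genes were counted in the same way, against the shares of all genes that rose and fell given above, 2.46% and 5.22% on day 1, 1.75% and 0.947% on day 3, and 1.42% and 4.06% on day 7. Of 16 genes of the unfolded protein and integrated stress response, 1 rose on day 3, the chaperone Pdia4 at 2.08-fold, and 1 fell on day 7, Atf4 at 0.390. After thinning Pdia4 was at 1.69 and Atf4 at 0.703. This list had medians of 0.02 on day 1, -0.08 on day 3 and -0.07 on day 7. Of 14 heat shock genes, 0 passed the limit on day 1 or day 3 and Hspe1 fell on day 7, with medians of 0.04 on day 1, 0.06 on day 3 and -0.28 on day 7, or 1.07 on day 1, 0.55 on day 3 and 1.09 on day 7 with free RNA subtracted. In sham control this list summed to 1175 CPM in the members and 3980 CPM in the free-RNA profile, of which 24.9% was subtracted. Sums left below 3 UMIs were set to 3, and the part of this floor in the subtracted medians was not tested. Of 17 hypoxia and glycolysis genes, Slc2a1, the glucose transporter, rose 2.10-fold (1.22 to 3.64) on day 1, while Hk1 and Pfkfb3, of glycolysis, fell to 0.428 and 0.388. Among members of 1500 to 4000 UMIs Slc2a1 was at 1.78 and Hk1 at 0.731. Gapdh fell to 0.330 on day 7, where the free-RNA estimate exceeded its sham level. Of 6 genes of gp130 and STAT3 signalling, 0 passed the limit on any day, and Stat3 itself stood at 1.33-fold on day 1, 1.13-fold on day 3 and 1.46-fold on day 7. Of 6 interferon and class I genes compared, B2m rose on day 3 and day 7, with free RNA at 140.3% and 85.7% of its level (at 1.09-fold on day 7 once this was subtracted), and Rnf213 rose 2.11 and 4.29-fold, with 1 nucleus holding 31.2% and 43.2% of its UMIs. Their median was -0.09 on day 1, 0.21 on day 3 and 0.58 on day 7, and -0.62 on day 7 among members of 1500 to 4000 UMIs.

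Only 2 of 18 immediate-early genes and 1 of 14 proliferation genes reached 60 UMIs. Jun, a subunit of the transcription factor AP-1, held 14.3 CPM in sham control, 33.0 on day 1, 30.2 on day 3 and 27.9 on day 7 and rose 2.30-fold (1.06 to 5.21) on day 1 and 2.11-fold (1.06 to 4.49) on day 3, or 1.74 on day 3 with no limit on precursor genes. Of 9 genes of apoptosis, Bcl2, which blocks cell death, rose 2.54-fold (1.37 to 5.01) on day 3 and fell to 0.251-fold (0.0462 to 0.898) on day 7, or 1.46 with equal weight for each nucleus and 0.949 after thinning, and Dapk1 fell to 0.499 on day 1, or 1.11 under the stricter rule. Of 28 genes of small GTPases and the cytoskeleton, Rhoj and Shroom3 passed the limit as given above and Mical2 fell on day 7 to 0.495, or 0.917 among members of 1500 to 4000 UMIs, with medians of 0.00 on day 1, -0.01 on day 3 and 0.10 on day 7. Genes of mature subtypes 5 and 6 had medians of 0.10 on day 1, -0.16 on day 3 and 0.01 on day 7 over 10 genes and those of subtype 2 0.00 on day 1, 0.34 on day 3 and -0.11 on day 7 over 4. Of 33 growth factor and guidance receptors and 31 ion channels and transporters, 3 and 5 fell on day 1, when 5.22% of all genes fell, and 25 and 20 were below sham control. The medians were -0.37 on day 1, -0.01 on day 3 and -0.20 on day 7 for the receptors and -0.27 on day 1, -0.01 on day 3 and -0.13 on day 7 for the channels. The former were the neuregulin Nrg3, the neurotrophin receptor Ntrk3 and the semaphorin Sema5a, which fell to 0.405, 0.270 and 0.411, and the latter were Kcnma1, Cacna1c, Trpm3, Gria4 and Grin1, which fell to 0.386, 0.415, 0.209, 0.472 and 0.453. Among members of 1500 to 4000 UMIs Kcnma1, Cacna1c, Gria4 and Grin1 were at 1.19, 0.646, 0.540 and 0.990 and under the stricter rule Trpm3 was at 0.997, so none of these falls held in every alternative. After thinning Nrg3, Ntrk3 and Sema5a were at 0.824, 0.532 and 0.741. Free RNA was estimated at 107%, 85.8% and 13.0% of the sham level of the first 3 and at 22.5% to 96.0% for the channels, and neuronal genes fell in the same members. On day 3, 16 of the 33 and 14 of the 31 were above sham control, Sema5a fell to 0.486-fold and the mechanosensitive channel Piezo2 rose 5.66-fold. On day 7, 14 and 10 were above it, Sema5a and Piezo2 rose 2.32 and 9.55-fold, and Kcnma1 and Trpm3 fell to 0.316 and 0.244. Both Piezo2 rises held in all 10 alternatives, while among members of 1500 to 4000 UMIs Sema5a was at 0.783 on day 3 and 1.93 on day 7, and Kcnma1 and Trpm3 were at 0.922 and 0.990 on day 7. Among 13 nuclear long noncoding RNAs Miat rose 2.24-fold on day 3, and among 7 mitochondrially encoded genes only mt-Nd3, from which no direction is drawn, passed the limit, while Rmst fell to 0.227 on day 1, or 0.873 after thinning, and 0.146 on day 7. The plot of list medians shows 10 of the lists beside the median of all genes.

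**Figure D4:**
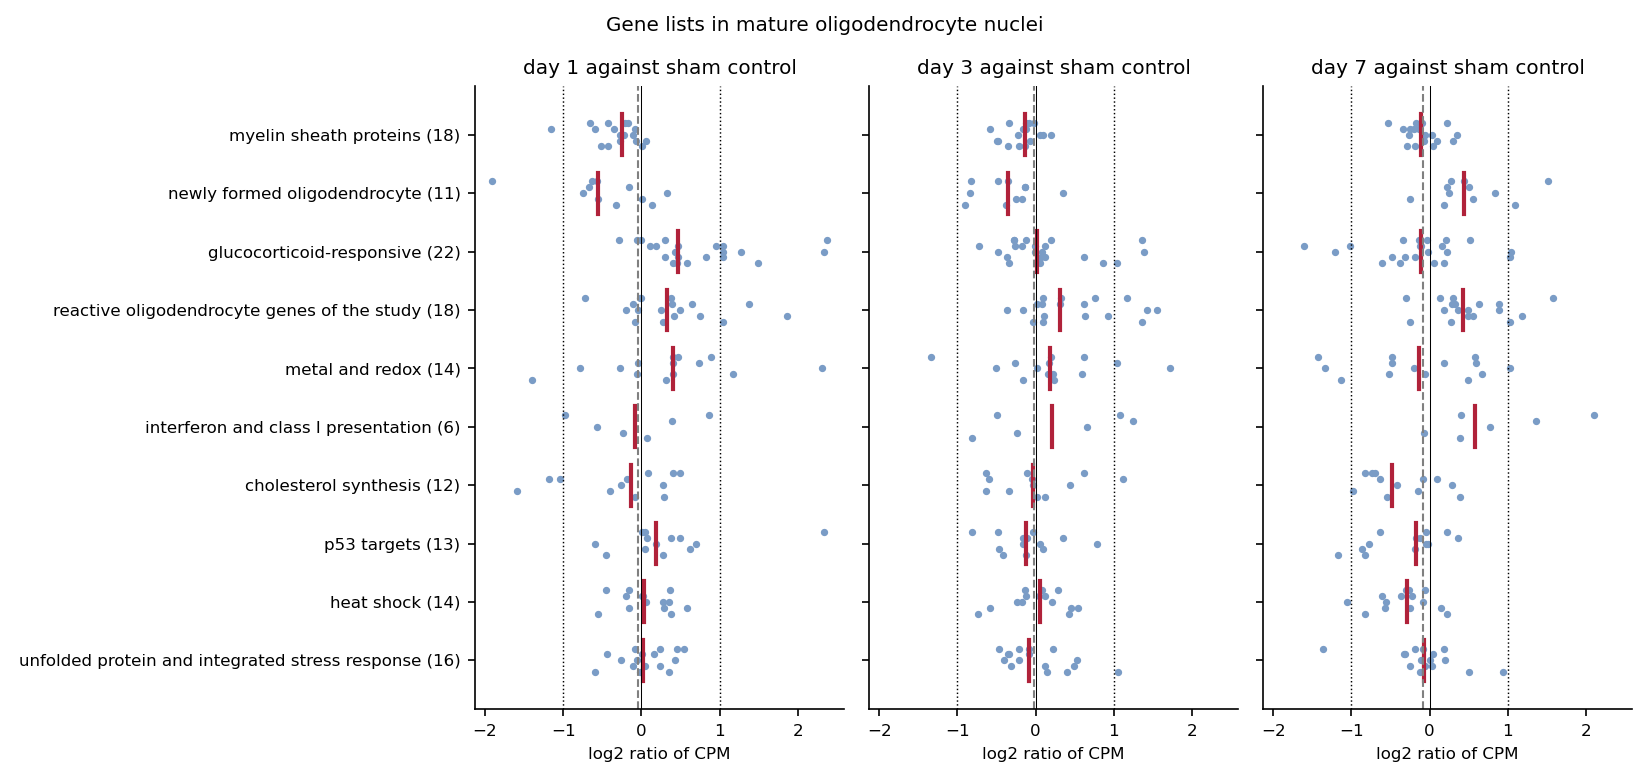
Log2 ratios to sham control of the genes of 10 lists in mature oligodendrocyte nuclei on days 1, 3 and 7. Dots are genes with at least 60 UMIs, red bars are list medians, the dashed grey line is the median of all genes and dotted lines mark 2-fold. The glucocorticoid-responsive list lies at 0.47 on day 1 and the newly formed list at 0.44 on day 7.

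Markers of other cell types moved between the libraries within the members. The summed level of 16 neuronal genes was 3188 CPM in sham control, 1631 on day 1, 3810 on day 3 and 2038 on day 7, with 0 of 16 at 0 in any library. Of these 16, 7 fell on day 1, against 5.22% of all genes. That of 12 astrocyte genes was 593, 344, 751 and 435 CPM, and that of 10 precursor genes 407, 175, 438 and 428 CPM, in the same order. Of these 10, Pdgfra, Cspg4 and Neu4 could hold at most 1 UMI together in a member by the rule, and the other 7 summed to 394, 158, 425 and 412 CPM. The 12 microglia genes stood at 277 CPM in sham control and at 519, 440 and 399 CPM on days 1, 3 and 7, so that they went the other way from these 3 lists on day 1. Of 10 compared, 5 rose on day 1, 5 on day 3 and 4 on day 7, against 2.46%, 1.75% and 1.42% of all genes. Among them, C1qa stood at 2.91-fold on day 1, 3.66-fold on day 3 and 3.19-fold on day 7. Ly86 stood at 5.22-fold on day 1, 2.24-fold on day 3 and 2.92-fold on day 7. With free RNA subtracted C1qa was at 0.915 on day 3, and among members of 1500 to 4000 UMIs Ly86 was at 0.836, 1.22 and 1.15. The list's median log2 ratio was 0.81 on day 1, 0.70 on day 3 and 0.53 on day 7, and with free RNA subtracted 1.18 on day 1, 0.02 on day 3 and 0.14 on day 7. In the free-RNA profile the microglia list went from 426 CPM in sham control to 691, 931 and 1052 CPM, and 1 nucleus held 32.6% of the Ly86 UMIs on day 1. Among 8 blood and granulocyte genes 7 were at 0 in sham control and 2 to 5 in the other libraries, and their sum was at most 18.8 CPM. Of 10 endothelial genes, 4 were at 0 on day 1, and their sum was 56.1, 19.1, 65.0 and 41.9 CPM.

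Over all genes, 182 rose and 386 fell on day 1, 129 rose and 70 fell on day 3, and 105 rose and 300 fell on day 7. The free-RNA estimate was under 50% of the higher library's level for 169 of the 182 rises and 194 of the 386 falls on day 1, for 65 of 129 and 63 of 70 on day 3, and for 93 of 105 and 156 of 300 on day 7. For the remaining falls it was 50% or more of the sham level. The interval of the ratio, for counting error, left out 1 for 160 of the 182 rises and 312 of the 386 falls on day 1, 123 of 129 and 68 of 70 on day 3, and 92 of 105 and 253 of 300 on day 7. When free RNA was subtracted, the calls on day 1 went from 32.0% higher to 65.2% higher, and on day 7 from 25.9% to 61.3%. Scaled by ependymal and choroid genes instead, the subtraction left 33.2% higher on day 1 and 27.0% on day 7 but moved day 3 from 64.8% to 46.0%. Among members of 1500 to 4000 UMIs 42.7% of the day 1 calls were higher, and under the stricter rule 44.2% of the day 7 calls. Among the falls on day 1 over all members, Aim2, a sensor of DNA in the cytosol, stood at 47.7 CPM in sham control, 8.68 on day 1, 33.0 on day 3 and 48.8 on day 7. It was the lowest of its series on day 1, 0.182-fold (0.0561 to 0.461), with a range of 0.140 to 0.221 over the alternatives. The histone gene Hist1h2be fell to 0.132-fold (0.0151 to 0.538) and Rasgef1b to 0.187-fold (0.0574 to 0.474). Cntn1, Lsamp, Luzp2, Tox, Cetn3 and Pitpnc1, of which Cntn1 and Lsamp are adhesion molecules of neurons and glia, were at 0.355, 0.507, 0.372, 0.282, 0.220 and 0.291, with free RNA at 46.9%, 37.7%, 24.8%, 47.2%, 41.9% and 32.0% of the sham level. Under the stricter rule Luzp2 was at 0.648 and Pitpnc1 at 0.831. Over all genes named by the rule there were 187 such rises and falls, and 77 of them passed the limit in every alternative that gave a value.

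**Figure D5:**
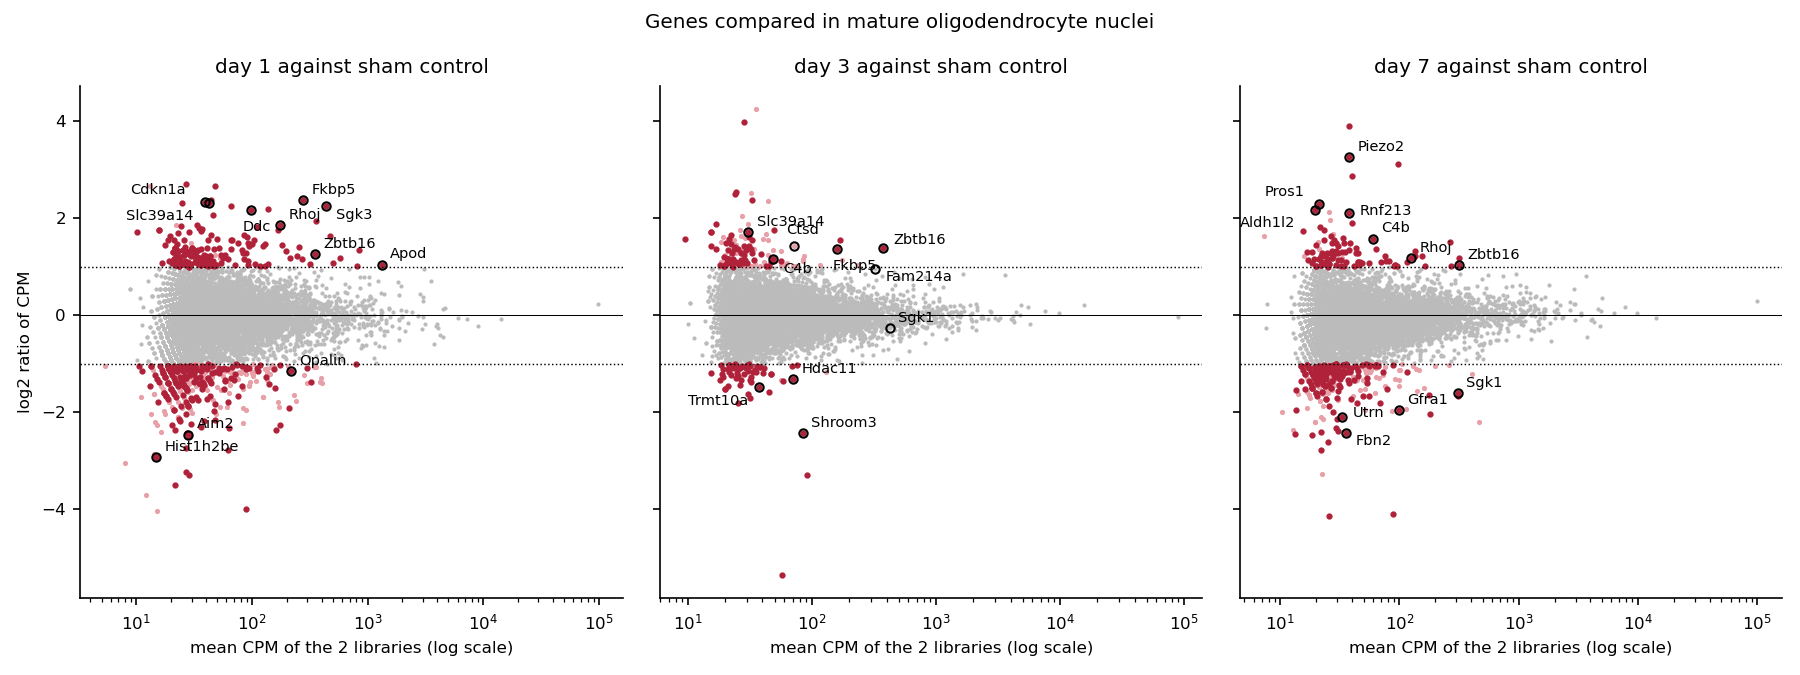
Log2 ratio to sham control against the mean CPM of the pair of libraries, on a logarithmic axis, for 7392 genes in mature oligodendrocyte nuclei, with a panel for each post-injury library. Grey genes are within 2-fold, dark red genes are past it with free RNA under 50% of the higher library's level, and pale red genes are past it with free RNA at 50% or more. Day 1 and day 7 have more falls, 386 and 300, than rises, 182 and 105.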

How the data were processed

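Nuclei of 4 pooled libraries were profiled by droplet-based 3′ single-nucleus RNA sequencing, with 28195551 UMIs in sham control, 23285489 on day 1, 42963698 on day 3 and 25033355 on day 7. The authors deposited raw UMI counts per gene and barcode, made with STAR 2.7.3a (STARsolo, exonic and intronic reads, GRCm38, GENCODE vM8), unfiltered and not normalised. Gene coordinates came from GENCODE vM21, which matched 46488 of 46983 genes.

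Members were chosen by the marker rule given in the report, and their UMIs were summed per library, scaled to CPM and compared with sham control as ratios, with exact intervals at 95% for counting error only. A sum of 0 was set to 3 UMIs in a ratio. After free RNA was subtracted, any sum below 3 UMIs was set to 3. Members and gene lists (35 lists, 596 symbols, 3 of them missing from the files) were chosen with earlier results of these data known. Named genes were, per day, the 12 with the highest lower limit and the 12 with the lowest upper limit of the ratio, without genes for which 1 nucleus held 25% or more of UMIs or free RNA was 50% or more of the higher level, the list genes past 2-fold (or, where none was, the 3 with the most UMIs) and 12 fixed genes. A few genes that this rule names are not reported here. Thinning drew 1000 UMIs from each nucleus without replacement. No doublet caller was run, and an alternative left out members with over 1.5% of UMIs in markers of other cell types. No member exceeded 20000 UMIs. Scripts were tested on simulated data. Python 3.11.15, numpy 2.4.6, scipy 1.17.1, pandas 2.3.3 and matplotlib 3.10.9 were used, with R 4.3.3 and edgeR 4.0.16 for TMM factors only.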

Additional observations from a re-analysis of the deposited data

How the results depend on the processing

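Gene ratios, list medians and counts of genes were recomputed under another member rule (at least 12 marker UMIs and 0.6% of UMIs, or no precursor limit), without possible doublets, after thinning to 1000 UMIs, with equal weight for each nucleus, with free RNA subtracted, with TMM factors, and without the richest nucleus of each gene. Shares of members were recomputed under the other member rules, without possible doublets and over deeper barcodes, and shares of members with a UMI only without thinning. The alternatives with members of 1500 to 4000 UMIs only, and with free RNA scaled by ependymal and choroid genes, were chosen after seeing the data. No paired analysis was possible because each group held 1 library, and for the same reason no replicate could be left out. Where a value changed, the cause was not tested, except that fewer genes reach 60 UMIs when UMIs or members are removed. Of the gene ratios recomputed, 3653 stayed within the interval of the reported ratio, 528 moved beyond it and 20 turned direction.

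Shares of members were 11.3%, 8.48%, 7.39% and 11.2% in the 4 libraries under the stricter rule, and 9.47% in sham control, 6.98% on day 3 and 11.4% on day 7 over barcodes of more than 2000 UMIs. Over these deeper barcodes the day 1 share stayed within its reported interval. The numbers of genes past 2-fold, each day higher before lower and in order of time, were 182, 386, 129, 70, 105 and 300 as reported. They were 110, 194, 62, 24, 48 and 127 after thinning, 340, 683, 280, 329, 246 and 666 with free RNA scaled by ependymal and choroid genes, 3132, 2533, 2135, 2379, 2370 and 2483 with no minimum of UMIs, 39, 93, 13, 5, 18 and 43 from 200 UMIs, and 698, 1039, 518, 461, 429 and 1005 at 1.5-fold. With free RNA subtracted by the neuron list, 811 rose on day 1, 485 rose and 364 fell on day 3, and 659 rose on day 7. Falls on day 1 and day 7 were 190 and 134 under the stricter rule and 235 and 146 among members of 1500 to 4000 UMIs. The genes compared numbered 7392 as reported, 3739 after thinning, 5849 under the stricter rule and 5395 among members of 1500 to 4000 UMIs. Counts under these settings are therefore not over the same number of genes.

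Of the list medians of log2 ratios recomputed, 914 moved by at most 0.25, 122 moved by more and 17 turned direction. The newly formed list on day 1 was at -0.023 under the stricter rule and -0.30 without the richest nucleus, and on day 7 at -0.0077 among members of 1500 to 4000 UMIs. With free RNA subtracted, the glucocorticoid list was at 0.72 on day 1 and the heat shock list at 1.09 on day 7. The reactive list was at 0.059 on day 1 with equal weight for nuclei. Among members of 1500 to 4000 UMIs, the reactive list was at 0.16 and the interferon list at -0.62 on day 7, and the precursor markers at -0.13 on day 3. The 2 immediate-early genes compared turned to -0.55, -0.23, -0.35 and -0.13 on day 3 and to -0.47, -0.10, -0.41 and -0.34 on day 7 under the stricter rule, thinning, the depth window and a minimum of 20 UMIs. Neuron markers on day 7 were at 0.0086 after thinning and 0.011 in the depth window, and astrocyte markers at 0.15 under the stricter rule, 0.0075 with equal weight and 0.072 in the depth window.

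Ratios that turned under the stricter rule were those of Dapk1 (1.11), Dlgap1 (1.00), Gm3764 (1.33), Pdk4 (0.874), Slc4a4 (1.82) and Slc6a11 (1.25) on day 1, Sema5a (1.14) on day 3, and Sox6 (1.60) and Trpm3 (1.07) on day 7. After thinning these were C1qc (0.815), Nfe2l2 (0.728) and Slc6a11 (1.22) on day 1 and Itpr2 (0.984) on day 7. In the depth window they were Cacna1e (1.05), Kcnma1 (1.19) and Ly86 (0.836) on day 1 and Itpr2 (0.911) and Pik3r3 (0.755) on day 7. With free RNA subtracted C1qa was at 0.915 on day 3, and with the other scaling C1qb was at 0.585. Depth limits genes of few UMIs most, since a gene at 60 UMIs over 1170 members holds few in each library.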
